A study of Mus musculus with 13 samples.

Results

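A-kinase anchoring proteins are scaffolds that hold protein kinase A, and often phosphatases and other kinases, at chosen places in the cell. The study's bait comes from 1 of them, dAKAP1 (gene Akap1), which sits on the outer mitochondrial membrane and also carries an RNA-binding KH domain and a Tudor domain. The genes described here are the 7 other anchoring protein genes Akap8, Akap8l, Akap9, Akap10, Akap11, Akap12 and Akap13, which were chosen by name from the 27071 genes of the deposited count table. All 7 were in the table and all 7 passed the filter on low counts, which kept 10714 genes. Akap1 itself is given beside them.

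Purified protein of the KH and Tudor domains (KHT) was incubated with MA-10 cell RNA and pulled down with an antibody against its maltose-binding protein (MBP) tag. MA-10 is a mouse Leydig tumour cell line, grown in RPMI medium with horse serum, so all RNA came from 1 line. There were 13 libraries. The KHT bait gave 4, the negative controls gave 5 (NEG, made with empty anti-MBP beads, MBP or the KHT(GDDG) protein, and not told apart in the labels), and input RNA from untreated cells gave 4 (IPT). The title and treatment label of the KHT libraries name the KHT bait, but their description is worded like that of the controls, so their identity rests on title and treatment. NEG 2 held 0 counts, and the other 12 libraries, 4 per group, were used. The RNA that bound was that of a purified bait in a tube and not of the protein in its place in the cell.

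Total estimated counts were 1955446 to 3689792 in KHT, 1162178 to 1618998 in NEG and 2487679 to 3085423 in IPT. In NEG, 9 dominant features, led by CT010467.1 and Lars2, known sinks for ribosomal RNA reads, took nearly all counts. Outside them 929348 to 2101632 counts were left in a KHT library, 31318 to 49062 in a NEG library and 1542713 to 2237374 in an IPT library. All 10 Leydig cell markers had counts in IPT, with a summed level of 343 to 624 counts-per-million (CPM). Summed Leydig markers ran from 341 to 522 CPM in KHT and from 8.49 to 396 CPM in NEG. The 6 Sertoli cell markers summed to at most 6.16 CPM in KHT, 0 in NEG and 6.11 CPM in IPT. The 5 germ cell markers summed to at most 3.54 CPM in KHT, 0 in NEG and 3.73 CPM in IPT. Macrophage and endothelial markers summed to 13.9 to 22.5 CPM in KHT, 28.6 to 157 CPM in NEG and 12.8 to 27.7 CPM in IPT. In NEG this sum was mostly Pecam1 (mean 112 CPM, against 3.59 CPM in IPT), while Cd68 was at 0 and Cdh5 had 8.40 CPM in NEG and 16.3 CPM in IPT. The 2 peritubular markers stayed at or under 0.452 CPM in KHT, 6.03 CPM in NEG and 0.149 CPM in IPT.

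The 7 proteins work at different places. Akap8, a zinc finger protein of the nucleus, and its relative Akap8l act at chromatin. Akap9 is a large scaffold of the centrosome and the Golgi apparatus. Akap10, also called D-AKAP2, binds both types of regulatory subunit of the kinase, as dAKAP1 does, and has domains like those of G protein signalling regulators. Akap11, or AKAP220, also holds glycogen synthase kinase 3 and a protein phosphatase. Akap12, known as gravin or SSeCKS, is a scaffold at the plasma membrane that also binds protein kinase C. Akap13, or AKAP-Lbc, is an exchange factor that activates the small GTPase RhoA.

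On the build GRCm38.p6, Akap8 (ENSMUSG00000024045) lay on chromosome 17 from 32303672 to 32321238. Akap8l (ENSMUSG00000002625) lay next to it from 32321424 to 32350616, on the same strand and 185 bases away. Akap9 (ENSMUSG00000040407) lay on chromosome 5 from 3927736 to 4080204, and Akap10 (ENSMUSG00000047804) on chromosome 11 from 61865203 to 61930308. Akap11 (ENSMUSG00000022016) lay on chromosome 14 from 78492246 to 78536980, and Akap12 (ENSMUSG00000038587) on chromosome 10 from 4266329 to 4359471. Akap13 (ENSMUSG00000066406) lay on chromosome 7 from 75455526 to 75754609. The genes are therefore scattered but for the neighbours Akap8 and Akap8l. The span of Akap9 also holds 2 long noncoding RNA genes and 1 pseudogene, and that of Akap12 holds 1 long noncoding RNA gene, so counts of these 2 genes could include reads of their neighbours. No span of the other 5 overlapped another RefSeq gene. Transcript lengths were not used here, so levels are compared between libraries and not between genes.

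KHT was set against NEG to ask which of these transcripts the bait pulled down above the mixed negative controls. The labels do not tell which control a NEG library is, so control type and replicate spread cannot be told apart. Akap10, Akap11, Akap12 and Akap13 were higher in KHT than in NEG, while Akap8, Akap8l and Akap9 did not pass the test. This was 4 of 7 members, none lower, where 31% of all tested genes were called higher and 2.72% lower at an adjusted p under 0.05 in edgeR. The NEG libraries held few counts of any member, 36 in all for the 7 genes together. Of these, 27 lay in NEG 5, 8 in NEG 3, 1 in NEG 4 and 0 in NEG 1. Counts above 0 were found for 14.6% of all tested genes in NEG 1, 31.8% in NEG 3, 26.1% in NEG 4 and 60.2% in NEG 5. NEG 5 thus had the most detected genes overall as well as the most member counts.

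**Figure D1:**
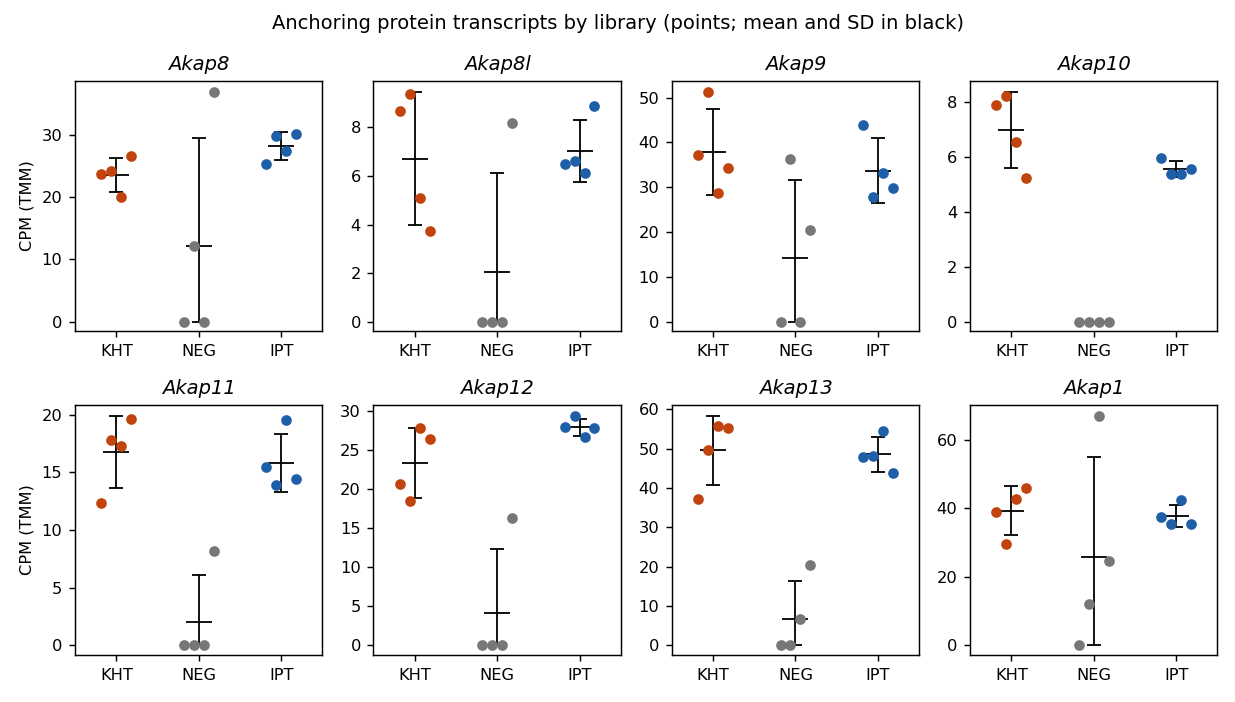
TMM-scaled CPM (vertical axes, linear, a scale per gene) of the 7 anchoring protein genes and Akap1 in the 4 KHT, 4 NEG and 4 IPT libraries. Coloured points are libraries, and black marks are the mean with 1 SD, cut at 0 where the SD exceeds the mean. KHT and IPT overlap for every gene shown, and Akap10 is at 0 in all 4 NEG libraries.

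Akap13 had the largest number of member counts in the pull-down. Its level, on the scale of CPM corrected by TMM factors, was 37.2, 49.8, 55.9 and 55.4 in KHT 1 to 4, against 0, 0, 6.69 and 20.4 in NEG 1, 3, 4 and 5. All 4 KHT libraries were above all 4 NEG libraries. The mean was 49.6 ± 8.72 CPM in KHT and 6.78 ± 9.63 CPM in NEG (SD over 4 libraries each), a log2 fold change of 2.74 (SE 0.68, edgeR adjusted p = 0.0079). Its call held in all 22 alternatives, with adjusted p-values up to 0.0343. Its size rested on NEG 5, without which the log2 fold change was 4.805. The median over all tested genes moved as well, from 1.73 in the reported fit to 6.24 without NEG 5. Akap13 lay above the median in the reported fit. The median without NEG 5 includes genes left with no NEG count, whose fitted sizes are not set by counts. No floor was applied to it, so Akap13 is not ranked against it.

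Akap11, the scaffold for glycogen synthase kinase 3, stood at 12.3, 17.8, 17.3 and 19.6 CPM in KHT 1 to 4, against 0, 0, 0 and 8.17 CPM in NEG 1, 3, 4 and 5. The groups did not overlap. Its 404 KHT counts stood against 2 NEG counts, a pooled ratio of 6.46 on the TMM scale (95% counting interval 1.78 to 53.5; edgeR adjusted p = 0.0145). The call ended without NEG 1 (adjusted p = 0.0508). Counting intervals cover counting error only, here and below.

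Akap12, the membrane scaffold, stood at 20.6, 18.5, 27.8 and 26.3 CPM in KHT 1 to 4, against 0, 0, 0 and 16.3 CPM in NEG 1, 3, 4 and 5. The lowest KHT library lay just above NEG 5. The mean was 23.3 ± 4.46 CPM in KHT and 4.09 ± 8.17 CPM in NEG (SD over 4 libraries each), a log2 fold change of 2.23 (SE 0.71, edgeR adjusted p = 0.0226). The call ended without NEG 1 (adjusted p = 0.0742), NEG 3 (0.0579) or NEG 4 (0.0554).

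Akap10, the dual-specificity anchoring protein, was the single member with no count in any NEG library. It had 60, 36, 58 and 21 counts in KHT 1 to 4, or 7.88, 8.22, 6.55 and 5.22 CPM, and 0 in NEG 1, 3, 4 and 5. With 3 counts over all NEG libraries taken as the floor, a one-sided limit for a count of 0, KHT was at least 1.87-fold higher (edgeR adjusted p = 0.0113). The two-sided 95% counting interval began at 1.501. These bounds do not place Akap10 above the all-gene median, a log2 fold change of 0.94 with genes at 0 in NEG at their floor. Over all tested genes, 27.9% were likewise at 0 in the 4 NEG libraries. With values halved, in case both mates of a read pair had been counted, the call ended (adjusted p = 0.054).

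Akap11, Akap12 and Akap13, with Akap10, were also the members whose KHT and NEG libraries did not overlap, again 4 of 7. Over all tested genes the KHT libraries lay wholly above the NEG libraries for 45.8%.

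Of the nuclear pair, Akap8 stood at 23.6, 24.2, 19.99 and 26.6 CPM in KHT 1 to 4, against 0, 12.1, 0 and 36.8 CPM in NEG 1, 3, 4 and 5. NEG 5 was above every KHT library. The log2 fold change was 0.80 (SE 0.61, 95% interval -0.46 to 2.06, edgeR adjusted p = 0.281), against 2.74 without NEG 5 and 0.35 without NEG 1. The median over all tested genes was 6.24 without NEG 5 and 1.44 without NEG 1. Both medians include genes with no NEG count at their fitted sizes, without a floor. Akap8l, its neighbour and relative, stood at 8.66, 9.36, 5.08 and 3.73 CPM in KHT 1 to 4, against 0, 0, 0 and 8.17 CPM in NEG 1, 3, 4 and 5. NEG 5 lay within the range of KHT, on 2 counts. Its log2 fold change was 1.42 (SE 0.93, 95% interval -0.50 to 3.35, edgeR adjusted p = 0.211).

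Akap9, the centrosome and Golgi scaffold, stood at 37.2, 51.1, 28.7 and 34.3 CPM in KHT 1 to 4, against 0, 36.2, 0 and 20.4 CPM in NEG 1, 3, 4 and 5. NEG 3 was inside the range of KHT. The log2 fold change was 1.44 (SE 0.64, 95% interval 0.11 to 2.76, edgeR adjusted p = 0.0795). Akap9 passed in DESeq2 (adjusted p = 0.00813), and in edgeR without NEG 3 (log2 fold change 2.30, adjusted p = 0.0339) or NEG 5 (0.0497). The median over all tested genes was 1.90 without NEG 3. Without NEG 5, Akap8 (adjusted p = 0.00526) and Akap8l (0.0245) passed in edgeR as well, so that all 7 members were called higher in KHT, where 47.2% of all tested genes were. No count of Akap8l, Akap11 or Akap12 was left in NEG in that fit. Without NEG 1, Akap10 and Akap13 alone passed, where 15% of all tested genes did.

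Akap1 stood at 39.0, 29.5, 42.8 and 45.9 CPM in KHT 1 to 4, against 0, 12.1, 66.9 and 24.5 CPM in NEG 1, 3, 4 and 5. NEG 4 was above all KHT libraries. Its log2 fold change was 0.72 (SE 0.60, 95% interval -0.51 to 1.96, edgeR adjusted p = 0.320), or 1.71 without NEG 4 (adjusted p = 0.0593). The median over all tested genes was 1.78 without NEG 4. Differences between members in their change from NEG to KHT were not tested, so Akap13 passing and Akap8 or Akap1 not passing does not show that they differ.

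The sparse NEG counts can also be set beside the number that the KHT rate would have given at the depth of NEG. For Akap13 the KHT rate gave 39.0 counts over the 4 NEG libraries on the TMM scale and 32.3 on the scale of counts outside the dominant features, and 6 were seen (95% Poisson interval 2.20 to 13.1). For Akap12 these values were 18.9 and 15.6, against 4 seen (1.09 to 10.2), and for Akap11 12.9 and 10.7, against 2 seen (0.242 to 7.22). For Akap9 they were 28.8 and 23.8, against 11 seen (5.49 to 19.7). The intervals of these 4 genes lay below the KHT rate on both scales, but they leave out the spread between libraries. Akap9 did not pass in edgeR, as given above. The share of all tested genes for which this held was not counted. The median of all tested genes was also higher in KHT than in NEG (log2 fold change 1.73), so this is not particular to the members. For Akap8 they were 18.2 and 15.1, against 11 seen (5.49 to 19.7), and for Akap8l 5.34 and 4.43, against 2 seen (0.242 to 7.22), so that both fell within counting error. For Akap10 the KHT rate gave 5.60 and 4.64 counts and 0 were seen. The two-sided upper limit of 3.69 also lay below the KHT rate on both scales. Expected counts of this size are the limit on what NEG can show for Akap8l and Akap10.

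**Figure D2:**
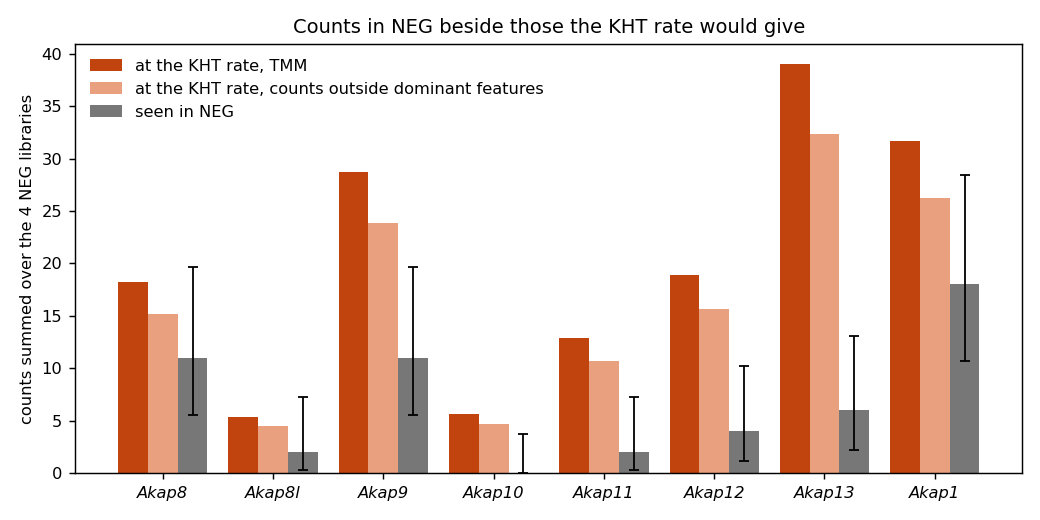
Counts summed over the 4 NEG libraries (vertical axis, from 0) for each gene, beside those that the rate in KHT would give at the depth of NEG under TMM scaling and under scaling by counts outside the dominant features. Error bars are 95% Poisson intervals of the seen counts and cover counting error only. Akap13 shows 6 counts seen against 39.0 and 32.3, while for Akap8 the KHT rate lies inside the interval.

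The size of the change from NEG depended on scaling. With total counts alone, all 7 members passed in edgeR as higher in KHT, with log2 fold changes of 4.75 for Akap8, 5.33 for Akap8l, 5.41 for Akap9, 6.56 for Akap11, 6.15 for Akap12 and 6.66 for Akap13, beside a median of 5.66 over all tested genes, 97.3% of which were called higher. Relative to that median, Akap8, Akap8l and Akap9 lay below it and Akap11, Akap12 and Akap13 above it. Akap10 was then at least 31.9-fold higher by the floor of 3 counts (two-sided counting limit 25.7), and at least 1.55-fold higher when scaled by counts outside the dominant features (1.25). Since they moved with scaling, sizes against NEG are read only beside the median of all genes. On simulated counts TMM set unchanged genes somewhat higher in KHT than in NEG. All simulated libraries shared a single profile and lacked the composition of NEG, so they cannot show how TMM acts on the real libraries. In the TMM fit the median log2 fold change was 2.23 over the 7 members and 1.73 over all genes, or 1.44 and 0.94 when genes without NEG counts took the value of their floor.

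**Figure D3:**
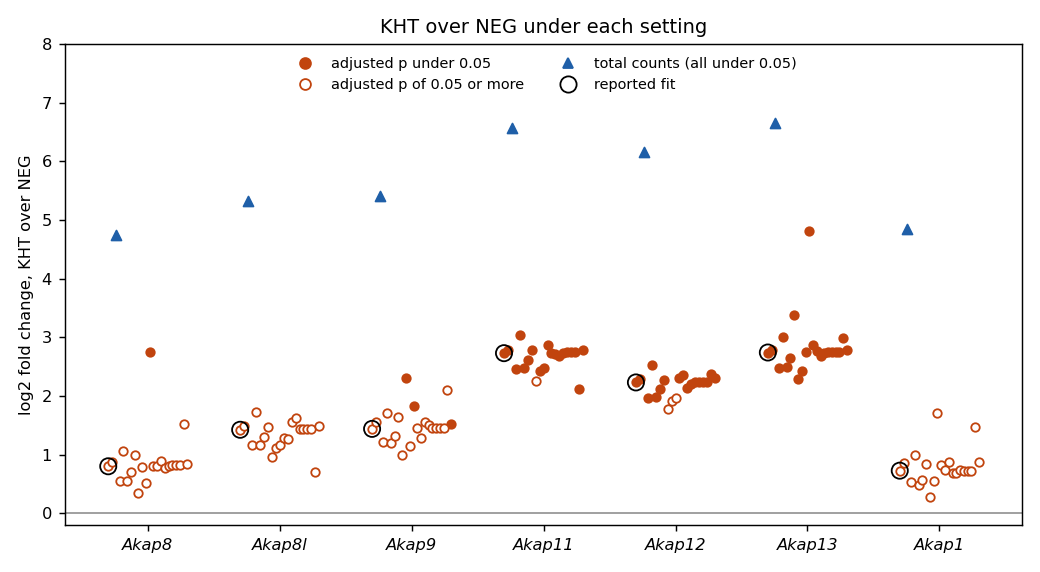
Log2 fold change of KHT over NEG (vertical axis) for 6 members and Akap1 under the reported fit (ringed) and its alternatives, each a point, filled where the adjusted p was under 0.05. Akap10, the fits in which a gene had no NEG count and the replicate block are not drawn. Triangles are the fits scaled by total counts, which lie at 4.75 to 6.66 for the members.

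KHT was then set against IPT, the RNA that went in, which asks whether the bait favoured a transcript over the rest of the RNA. None of the 7 members differed between KHT and IPT in edgeR at an adjusted p under 0.05, and none had an unadjusted p under 0.05. Limma voom also gave none at either threshold. DESeq2 gave 0 adjusted and 1 unadjusted, Akap8, lower in KHT (log2 fold change -0.31, DESeq2 unadjusted p = 0.031). Of the 10714 tested genes, 175 had an unadjusted p under 0.05 in edgeR, 202 in limma voom and 401 in DESeq2. Over all tested genes the share called in edgeR was 0.00933% higher and 0% lower, so nearly all other genes did not pass either. The CPM of KHT and IPT overlapped for each of the 7 members, and over all tested genes KHT lay wholly above IPT for 0.84% and wholly below for 1.17%. The members' log2 fold changes ran from -0.26 for Akap12 to 0.33 for Akap10, with a median of 0.03, beside 0.01 over all genes.

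The members farthest below the input were Akap8 and Akap12. Akap8 had 23.6, 24.2, 19.99 and 26.6 CPM in KHT 1 to 4, against 25.4, 29.7, 27.4 and 30.1 CPM in IPT 1 to 4. The groups overlapped through KHT 4 alone, which was above IPT 1. The mean was 23.6 ± 2.72 CPM in KHT and 28.1 ± 2.22 CPM in IPT (SD over 4 libraries each), with a log2 fold change of -0.26 (SE 0.37, 95% interval -1.03 to 0.51, edgeR adjusted p = 1.00). In the fit of KHT and IPT alone the interval narrowed to -0.56 to 0.06. Akap12 had 20.6, 18.5, 27.8 and 26.3 CPM in KHT 1 to 4, against 27.9, 29.3, 26.7 and 27.8 CPM in IPT 1 to 4. KHT 1, KHT 2 and KHT 4 were below all IPT libraries, and KHT 3 was within them. The IPT libraries lay close together, with a coefficient of variation of 3.89%, against 19.1% in KHT. The log2 fold change of Akap12 was -0.26 (95% interval -0.95 to 0.43), or -0.25 (-0.60 to 0.09) in the fit of the 2 groups alone.

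Akap10 was the member farthest above the input. It stood at 7.88, 8.22, 6.55 and 5.22 CPM in KHT 1 to 4, against 5.96, 5.35, 5.36 and 5.54 CPM in IPT 1 to 4. In KHT, 3 libraries were above all of IPT, and KHT 4 was below them. The mean was 6.97 ± 1.37 CPM in KHT and 5.56 ± 0.286 CPM in IPT (SD over 4 libraries each), with a log2 fold change of 0.33 (SE 0.30, 95% interval -0.29 to 0.95, edgeR adjusted p = 1.00). In the fit of the 2 groups alone the interval was -0.13 to 0.80.

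Akap9 stood at 37.2, 51.1, 28.7 and 34.3 CPM in KHT 1 to 4, against 44.0, 27.9, 33.2 and 29.8 CPM in IPT 1 to 4. KHT 2 was the highest of the 8 libraries and IPT 1 the next. Its log2 fold change was 0.16 (95% interval -0.72 to 1.04). Akap8l stood at 8.66, 9.36, 5.08 and 3.73 CPM in KHT 1 to 4, against 6.50, 6.62, 6.11 and 8.89 CPM in IPT 1 to 4. It varied more in KHT, with a coefficient of variation of 40.7%, than any other member in KHT or IPT, and its log2 fold change was -0.07 (95% interval -0.78 to 0.65).

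Akap11 had 15.4, 13.9, 19.5 and 14.4 CPM in IPT 1 to 4, close to its levels in KHT given above, with a log2 fold change of 0.08 (95% interval -0.52 to 0.68). Akap13 had 47.9, 48.2, 54.5 and 43.7 CPM in IPT 1 to 4, and its log2 fold change was 0.03 (95% interval -0.87 to 0.93). In the fit of the 2 groups alone the interval of Akap13 narrowed to -0.31 to 0.37. Akap1 had a log2 fold change of 0.06 (95% interval -0.88 to 1.00). Summed over the 7 genes and scaled to the counts outside the dominant features, the members made up 646 to 747 CPM in the KHT libraries, 0 to 550 CPM in the NEG libraries and 685 to 752 CPM in the IPT libraries.

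**Figure D4:**
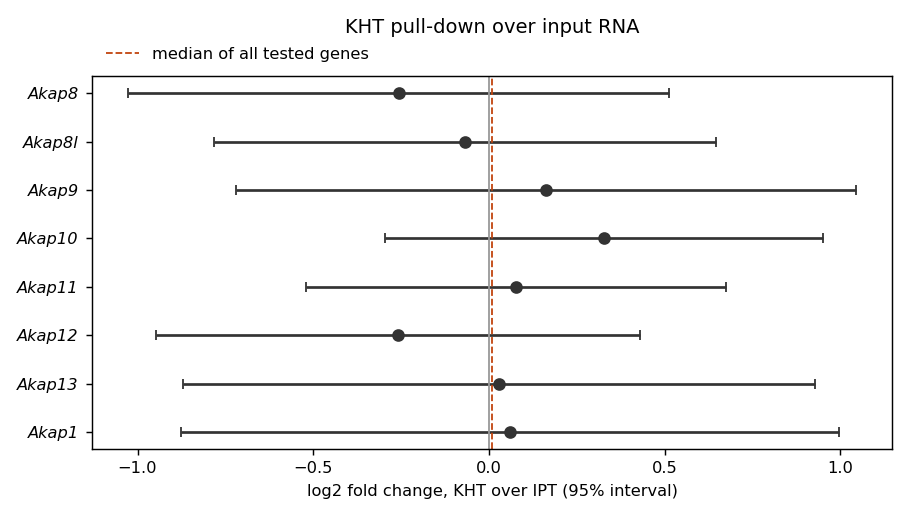
Log2 fold change of KHT over IPT (horizontal axis) with its 95% interval from edgeR for the 7 members and Akap1. The dashed line is the median of all tested genes. Every interval includes 0, and the estimates of the members run from -0.26 to 0.33.

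Whether members shifted against each other was tested on the ratio of their counts within a library, which does not depend on scaling between libraries. The 28 pairs of the 7 members and Akap1 were compared between the 4 KHT and 4 IPT libraries with two-sided exact permutation tests, for which the smallest possible p is 0.0286. None of the 28 pairs had an unadjusted p under 0.05, and the lowest adjusted p was 0.48. A single pair at the smallest possible p would not pass after adjustment over 28 pairs. The adjusted values therefore cannot decide whether a single pair shifted. The lowest unadjusted value belonged to Akap8 against Akap10, with a mean log2 ratio of 1.76 ± 0.374 in KHT and 2.33 ± 0.173 in IPT (SD over 4 libraries each; a difference of -0.56, exact permutation p = 0.0571, adjusted p = 0.48). The ratio of Akap10 to Akap12 averaged -1.73 ± 0.548 on the log2 scale in KHT and -2.32 ± 0.0913 in IPT (difference 0.59, exact permutation p = 0.0857, adjusted p = 0.48). The ratio of the neighbours Akap8 and Akap8l averaged 1.89 ± 0.660 in KHT and 2.004 ± 0.191 in IPT (difference -0.11, exact permutation p = 0.8286, adjusted p = 0.859), and this difference was -0.416 without KHT 4, 0.0349 without KHT 1 and 0.0619 without KHT 2. For each pair the KHT and IPT ranges overlapped. The ratio of Akap11 to Akap13 varied least within KHT, with an SD of 0.0989 on the log2 scale, and its SD in IPT was 0.126.

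Across the 8 KHT and IPT libraries the members did not move as 1 group. On log2(CPM + 1), Akap11 and Akap13 had a Pearson correlation of 0.893, the highest of the member pairs, while Akap10 and Akap12 had one of -0.876, the lowest. These are descriptions over 8 libraries that share 1 cell line and the same scaling. The genes with the most similar profile among those with a mean of at least 5 CPM were Zfyve16 (0.976) and Dock8 (0.938) for Akap8l and Nbeal1 (0.966) and Wwtr1 (0.966) for Akap9. For Akap10 they were Ccdc186 (0.9499) and Zmym5 (0.943), and for Akap12 Ninl (0.965) and Mllt1 (0.959). For Akap13 they were Slfn9 (0.963) and Arhgap32 (0.953), for Akap11 Prpf18 (0.959) and mt-Tn (0.951), and for Akap8 Lhcgr (0.915) and Ccar1 (0.909). Such values are the highest of about 7160 genes each.

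NEG was set against IPT to show how the background alone relates to the input. The same 4 members, Akap10, Akap11, Akap12 and Akap13, were lower in NEG than in IPT in edgeR, and none was higher, where 32.5% of all tested genes were called lower and 3.64% higher. These 4 were also the members whose NEG libraries lay wholly below the IPT libraries, as they did for 47.1% of all tested genes. This comparison and that of KHT with NEG share the NEG libraries. Akap13 had a mean of 6.78 ± 9.63 CPM in NEG and 48.6 ± 4.45 CPM in IPT (SD over 4 libraries each), which edgeR put at a log2 fold change of -2.71 (SE 0.68, adjusted p = 0.00755). Akap12 had 4.09 ± 8.17 CPM in NEG and 27.9 ± 1.08 CPM in IPT (log2 fold change -2.49, SE 0.69, edgeR adjusted p = 0.012), and both passed in all 22 alternatives. Akap11 had 2 counts in NEG and 513 in IPT, a pooled ratio of 0.161 (95% counting interval 0.0194 to 0.583; edgeR adjusted p = 0.016), and lost the call without NEG 1 (adjusted p = 0.0555). Akap10 had 0 counts in NEG and 183 in IPT (edgeR adjusted p = 0.017), and lost the call when only NEG and IPT were fitted (0.0515), with halved values (0.0787) and without NEG 1 (0.0574). Akap8 (log2 fold change -1.06, adjusted p = 0.153), Akap8l (-1.49, adjusted p = 0.185) and Akap9 (-1.28, adjusted p = 0.113) did not pass in edgeR. The all-gene median of NEG over IPT stood at -1.74 in the reported fit. Floor values for genes at 0 in NEG brought it to -0.95. Akap8, Akap8l and Akap9 lay between -1.74 and -0.95, while Akap12 and Akap13 fell further than both. Without NEG 5 the log2 fold change was -4.78 for Akap13 and -3.00 for Akap8. The all-gene median of that fit was -6.24. It includes genes left with no NEG count at their fitted sizes, without a floor, so these drops are not ranked against it. With total counts all 7 were lower in NEG, as were 97.3% of all tested genes.

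Other genes of the same signalling system were read from 7 lists. Of 11 tested genes for further anchoring proteins, 4 rose in KHT relative to NEG and none fell, near the 31% of all tested genes called higher (median log2 fold change 1.80, or 1.65 with genes lacking NEG counts at their floor). They included Akap7, a small anchoring protein with 164 counts in KHT and 0 in NEG (edgeR adjusted p = 0.0136). It was at least 1.75-fold higher by the floor of 3 counts (two-sided counting limit 1.41). This bound does not place Akap7 above the all-gene median at the floor (log2 fold change 0.94). They also included Synm, an intermediate filament protein, with 298 KHT counts against 1 NEG count (pooled ratio 9.53, counting error alone giving 95% limits of 1.70 and 378; edgeR adjusted p = 0.0199). Against IPT none of the 11 passed in edgeR, with a median of -0.10. Ezr, which links actin to the membrane, was the farthest from input, at 10.9 ± 4.05 CPM in KHT and 17.9 ± 7.22 CPM in IPT (SD over 4 libraries each; a log2 fold change of -0.71, 95% interval -1.46 to 0.05, edgeR adjusted p = 1.00). Map2, a microtubule protein, had a log2 fold change against IPT of -0.42 (95% interval -1.27 to 0.43), and Pde4dip, or myomegalin, one of 0.33 (-0.34 to 0.99).

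None of the 9 tested genes of protein kinase A subunits and inhibitors passed between KHT and NEG in edgeR, with 3 at an unadjusted p under 0.05, where 48.8% of all tested genes were (median log2 fold change 1.16, at the floor 0.69). Prkar1a, a type I regulatory subunit, stood at 61.6 ± 15.7 CPM in KHT and 20.6 ± 17.0 CPM in NEG (SD over 4 libraries each), which edgeR put at a log2 fold change of 1.60 (SE 0.65, adjusted p = 0.0612). The type II subunit Prkar2b had 323 KHT counts against 2 NEG counts (pooled ratio 5.17, counting error alone giving 95% limits of 1.42 and 42.8; edgeR adjusted p = 0.06). None of the 4 tested cAMP phosphodiesterases passed between KHT and NEG, with 1 at an unadjusted p under 0.05 (median 3.83, at the floor 0.56). This was Pde4a, with 97 counts in KHT and 0 in NEG (edgeR adjusted p = 0.0596), too few to set a fold. Of 2 tested adenylyl cyclases, Adcy9 was higher, with 386 KHT counts against 1 NEG count (pooled ratio 12.3, counting error alone giving 95% limits of 2.20 and 489; edgeR adjusted p = 0.0088), and the median of both was 2.73.

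Among phosphatases and kinases that anchoring proteins hold, 6 of 20 rose in KHT relative to NEG and none fell, again near the 31% of all tested genes (median 1.63, at the floor 1.55). Mapk14, the p38 kinase, had 760 KHT counts against 2 NEG counts (pooled ratio 12.2, counting error alone giving 95% limits of 3.35 and 101; edgeR adjusted p = 0.00385). Prkca, a protein kinase C, was at 0 in NEG and at least 2.19-fold higher in KHT by the floor (two-sided counting limit 1.76, edgeR adjusted p = 0.0132). Of 17 centrosome and Golgi genes 7 were higher and 1 lower, beside 31% and 2.72% of all tested genes (median 1.80, at the floor 1.80). Tubgcp2 of the gamma-tubulin complex was at 0 in NEG and at least 4.09-fold higher in KHT by the floor (two-sided counting limit 3.31, edgeR adjusted p = 0.00404). Pcnt, the pericentrin gene, had 714 KHT counts against 3 NEG counts (pooled ratio 7.61, counting error alone giving 95% limits of 2.59 and 37.0; edgeR adjusted p = 0.00885). Of 16 condensin and chromatin genes 4 were higher and none lower, beside the same 31% (median 1.16), among them the condensin subunits Ncapd2 (log2 fold change 4.20, edgeR adjusted p = 0.00267) and Ncapg2 (2.84, adjusted p = 0.00817). These medians stand beside 1.73 over all genes, or 0.94 at the floor. Between KHT and IPT no gene of the 7 lists passed in edgeR and none had an unadjusted p under 0.05, and the medians of the lists ran from -0.10 to 0.28.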

How the data were processed

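The authors' deposited table holds estimated counts (expected counts) per gene, unscaled and already whole, so rounding changed none. The submitters' processing notes name kallisto, DESeq2, GRCm38 and mm10. How transcripts became gene values, any filter and the use of strand are not given in the sources used here. Libraries were grouped by title, which the treatment label matches and the description of KHT does not, and no label tells whether separate cultures were used, so p-values cover only the spread between these libraries. NEG 2, at 0 throughout, was left out. Symbols came from a gene name table (27004 of 27071 identifiers) and coordinates from RefSeq on GRCm38.p6.

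Genes were tested with edgeR 4.0.16 (R 4.3.3; glmQLFit, robust; glmQLFTest, two-sided) in 1 fit of 3 groups with TMM scaling and filterByExpr (10714 genes), with Benjamini-Hochberg adjustment over all genes and a threshold of 0.05. CPM used TMM effective library sizes. Standard errors and 95% intervals came from the F statistic. Dominant features held at least 0.5% of pooled NEG counts. For a gene with no NEG count, 3 counts over the group served as the floor. Ratios within a library used a pseudocount of 0.5 counts. On simulated counts the fit recovered few of the changes placed between KHT and NEG and more of those between KHT and IPT. It set unchanged genes somewhat higher in KHT than in NEG, more so with TMM than with RLE. The simulated libraries shared a single profile without the composition of NEG, so they do not measure recovery or bias in the real libraries. Members and lists were chosen with earlier results of these data known. The text names all members and Akap1, up to 3 genes per list with the smallest p against IPT and up to 2 against NEG (some are left out), and 2 genes of most similar profile per member. Alternatives included limma 3.58.1 (voom) and DESeq2 1.42.0.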

Additional observations from a re-analysis of the deposited data

Results flagged for a closer look

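Within the 4 NEG libraries, Akap8l (8.17 CPM), Akap11 (8.17 CPM) and Akap12 (16.3 CPM) were found in NEG 5 alone, with the other 3 libraries at 0, so that NEG 5 stood apart from its group by the Dixon criterion for 4 samples. These values rest on 2, 2 and 4 counts. Chance flags about 1 in 20 groups, 24 groups of 4 libraries were looked at, and a group with a single library above 0 meets the criterion whatever its count. NEG 5 also held the most tested genes with counts (60.2%), and its part in these values was not tested.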

How the results depend on the processing

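Of the members' log2 fold changes and calls, with those of Akap1, 161 of 176 alternatives for KHT with NEG left call and direction as reported, as did 161 for KHT with IPT and 162 for NEG with IPT, and no called member changed direction. Alternatives that made or ended a call are named above, but for the replicate block, which called Akap8 higher in KHT than in NEG (adjusted p = 0.0174) and lower in NEG than in IPT (0.0105), DESeq2, which called Akap8 (0.0297) and Akap9 (0.0125) lower in NEG than in IPT, and fits for NEG with IPT without NEG 3 or NEG 5. With total counts 7 members rose in KHT relative to NEG and 7 fell in NEG relative to IPT, as did Akap1 (log2 fold changes 4.84 and -5.03). The all-gene medians were then 5.66 and -5.90. Leaving out single libraries gave 2 (without NEG 1) to 7 (without NEG 5) members higher in KHT than in NEG and 2 to 6 lower in NEG than in IPT.

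The sign of small KHT over IPT changes turned with total counts for Akap9 (-0.096), Akap11 (-0.197), Akap13 (-0.246) and Akap1 (-0.188), where the median of all genes was -0.24. It also turned for Akap13 with RLE size factors (-0.021) and DESeq2 (-0.020). Without 1 library at a time the log2 fold change ran from -0.249 to 0.107 for Akap8l, -0.015 to 0.318 for Akap9, -0.0054 to 0.203 for Akap11, -0.038 to 0.144 for Akap13 and -0.025 to 0.176 for Akap1.

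Over all genes, KHT with NEG called 3324 higher and 291 lower, against 10426 and 14 with total counts, 2102 higher in the 2 groups, 5042 higher with the replicate block, 791 lower without a filter, and 1720 to 5421 higher and 174 to 454 lower without 1 library. NEG with IPT called 390 higher and 3482 lower, against 50 and 10423 with total counts, 2046 lower in the 2 groups, 987 higher without a filter, and 1783 to 5438 lower without 1 library. KHT with IPT called 1 higher and 0 lower, with 175 at an unadjusted p under 0.05. It called 0 higher with RLE size factors, total counts, counts outside the dominant features, a mean of at least 10 CPM and halved values, 43 higher and 13 lower without a filter, 4 higher and 3 lower in DESeq2, 8 lower in limma voom, 1 lower in the 2 groups, 1 lower with halved values, and 0 to 2 higher and 0 to 2 lower without 1 library. The causes were not tested.

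Replicate numbers could not be shown to pair the libraries. Deviations of same-numbered KHT and IPT libraries correlated between -0.524 and 0.174, and not every library correlated best with its own number (KHT 1 with IPT 2 at 0.264, with IPT 1 at 0.042). Libraries of unlike number correlated between -0.59 and 0.634. With 4 libraries per group this check cannot decide whether libraries were paired. The block fits NEG 5, the sole library of that number, by itself. It left 0 of the 28 count ratios past the threshold (exact sign-flip test over 4 pairs, which cannot go below p = 0.125; lowest adjusted p = 0.778), as did a pseudocount of 1 count and halved values in the exact permutation test. In none of these tests could a single ratio have passed after adjustment. NEG depth limits all statements on the background.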
